A study of Mus musculus with 4 samples.

Results

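Amino acid and peptide transporters of the solute carrier families Slc1, Slc3, Slc6, Slc7, Slc15, Slc36, Slc38 and Slc43 were examined in mouse small-intestinal epithelial cells with an activated NF-kB pathway. The members were all non-control probes whose gene name in the scanner files begins with one of these family names, which gave 102 of 41174 probes, for 60 genes. A probe was reported where the scanner software flagged its signal as well above background on 2 or more arrays. This left 39 probes for 30 genes, and the other 30 genes are accounted for below. In the 30 genes, 4 were higher in the IKKb(EE)IEC samples (Slc38a2, Slc6a4, Slc43a2 and Slc3a1), 3 were lower (Slc6a13, Slc6a16 and Slc6a17) and 23 did not pass the threshold of an adjusted p below 0.05 (limma, Benjamini-Hochberg over 12446 genes). Of all 12446 genes, 7.97% were higher and 7.17% lower by the same rule. Slc6a13 met the background filter through the WT arrays alone, so its call is no support for a fall.

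The study compared cells freshly taken from the small bowel of wild-type (WT) mice, 2 samples, with cells of IKKb(EE)IEC mice, 2 samples. IKKb is the kinase that releases NF-kB from its inhibitor, and in the IKKb(EE)IEC mice a constitutively active version is expressed in the intestinal epithelium; the WT mice were littermates. The promoter driving the transgene, the age and sex of the mice and the number of mice per sample are not given in the sources used here; no other allele or agent is named for either group. The series calls the samples biological replicates, so p-values rest on 2 samples in each group. The error used for a gene combines its own spread between those samples with the spread typical of all genes (limma, prior of 3.51 degrees of freedom).

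Dietary protein reaches the enterocyte as small peptides and free amino acids. Transporters in the brush border take them up against a gradient, using sodium, protons or exchange for another amino acid, and other carriers in the basolateral membrane release them to the blood. Several work as pairs: a heavy subunit, Slc3a1 or Slc3a2, brings a light subunit of the Slc7 family to the membrane. Other carriers supply the cell's own protein synthesis, and many Slc6 members carry neurotransmitters or osmolytes rather than dietary amino acids.

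Each array gave a signal per probe, which is stated here as log2 of the processed signal minus the log2 of that array's 75th percentile, so that 0 is the 75th percentile of the array. WT arrays had a percentile of 60.3 and 66.1, IKKb(EE)IEC arrays one of 94.6 and 107.8. All 4 arrays lay on 1 slide in 1 scan, with WT at positions 1 and 2 and IKKb(EE)IEC at positions 3 and 4, so position and genotype cannot be told apart. Arrays of the same genotype correlated at 0.978 (WT) and 0.994 (IKKb(EE)IEC) across genes, and arrays of different genotypes at 0.937 to 0.947. All 14 enterocyte markers were measured, among them Vil1, the brush border protein villin, at 7.99 and 8.12 in WT against 8.14 and 8.08 in IKKb(EE)IEC. Of the 14 markers, 1 was higher (Anpep), 3 were lower and 10 did not pass, with a median change of −0.01. Their summed level, on the linear scale in units of the 75th percentile, was 14000 and 14900 in WT against 7420 and 7580 in IKKb(EE)IEC. The fatty acid-binding protein genes Fabp1 (−1.35 ± 0.28, adjusted p = 0.0379) and Fabp2 (−1.56 ± 0.23, adjusted p = 0.0161) made up most of that sum, and the other 12 markers summed to 3170 and 2990 against 3460 and 3630. In bulk samples, fewer cells of a type and less RNA per cell cannot be told apart.

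The sequences upstream of 4 of the changed genes are shown because the genes that passed in opposite directions can then be read side by side. Each is 250 bases before and 50 after an annotated start (RefSeq, GRCm38.p6), 5′ to 3′ on the gene's strand, with capitals marking matches on either strand to the motifs searched: the kappaB consensus (by name), the amino acid response core TGATGNAA, the AP-1 site TGANTCA, the TATA box TATAAA, the CCAAT box and the GC box GGGCGG. The Slc6a13 window is that of the most downstream of its 3 annotated starts.
Slc38a2 promoter (chr15:96699679-96699978, minus strand): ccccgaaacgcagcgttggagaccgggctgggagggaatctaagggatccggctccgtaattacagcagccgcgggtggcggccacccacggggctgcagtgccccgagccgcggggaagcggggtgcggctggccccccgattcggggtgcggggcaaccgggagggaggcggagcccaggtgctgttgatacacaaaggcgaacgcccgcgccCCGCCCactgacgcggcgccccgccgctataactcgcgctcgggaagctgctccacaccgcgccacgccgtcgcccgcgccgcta
Slc6a4 promoter (chr11:76998347-76998646, plus strand): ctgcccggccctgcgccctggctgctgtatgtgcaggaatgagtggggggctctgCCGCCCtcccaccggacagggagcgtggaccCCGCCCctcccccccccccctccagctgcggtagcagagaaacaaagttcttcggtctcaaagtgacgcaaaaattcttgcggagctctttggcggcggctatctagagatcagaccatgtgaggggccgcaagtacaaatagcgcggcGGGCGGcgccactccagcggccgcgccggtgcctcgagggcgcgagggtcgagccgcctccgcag
Slc3a1 promoter (chr17:85028097-85028396, plus strand): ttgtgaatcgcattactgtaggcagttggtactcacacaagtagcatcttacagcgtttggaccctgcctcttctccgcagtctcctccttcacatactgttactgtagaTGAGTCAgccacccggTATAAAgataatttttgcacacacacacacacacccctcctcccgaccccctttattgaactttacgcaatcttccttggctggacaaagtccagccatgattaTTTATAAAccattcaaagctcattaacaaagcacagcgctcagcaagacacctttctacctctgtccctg
Slc6a13 promoter (chr6:121303389-121303688, plus strand): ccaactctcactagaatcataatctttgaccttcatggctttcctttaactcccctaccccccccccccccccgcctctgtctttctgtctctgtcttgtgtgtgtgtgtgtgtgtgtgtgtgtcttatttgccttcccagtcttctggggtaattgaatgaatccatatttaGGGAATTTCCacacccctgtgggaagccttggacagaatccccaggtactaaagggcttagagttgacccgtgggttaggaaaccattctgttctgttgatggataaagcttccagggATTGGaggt
The kappaB consensus was found in 5.8% of all 32851 promoter windows and in 7.5% of the 40 windows of the 25 reported genes that the RefSeq table lists. In the 4 printed windows it occurs once, in Slc6a13, beginning at −77 from the start. The windows of the other Slc6a13 starts, which are not printed, have no kappaB match. Those of Slc6a16 and Slc6a17, the other genes that were lower, have none either. Neither that consensus nor the amino acid response core occurs in the windows of the 4 genes that were higher. Sequence outside these windows was not searched, so this does not show that the genes lack either motif. The response core was found in 3.97% of all windows and 5% of the member windows, both of the latter in Slc7a7, which also had the other 2 windows with a kappaB match. An AP-1 match, which reads the same on both strands, begins at −140 from the start of Slc3a1, where overlapping TATA box matches on opposite strands also begin at −20 and −18. Both windows of Slc6a17, which was lower, also hold an AP-1 match, beginning at −31 and −33, as does a window of Slc7a1, which did not pass. AP-1 matches were found in 7.81% of all windows and 10% of member windows. The TATA box (13.6% against 10%) and the CCAAT box (37.4% against 27.5%) were found in a smaller share of member windows, and the GC box in 35.7% of all and 55% of member windows. These are descriptions of letters in a window, and no binding was measured.

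Among the 6 brush border transporters, Slc3a1 rose and 5 did not pass the threshold. Slc3a1, the heavy subunit of the carrier for cystine and dibasic amino acids, was at 3.31 and 3.53 in WT against 4.17 and 4.20 in IKKb(EE)IEC (probe at chr17:84972128-84972187, mm8). Both IKKb(EE)IEC arrays were above both WT arrays, by 0.76 ± 0.17 (SE; 1.70-fold; adjusted p = 0.0445). Its partner in the same carrier, the light subunit Slc7a9, was at 5.24 and 5.40 in WT against 5.43 and 5.50 in IKKb(EE)IEC, a difference of 0.14 ± 0.17 (adjusted p = 0.563). The heavy subunit was thus separated by genotype beyond the spread of its replicates, while the change of the light subunit was smaller than its error; whether the 2 changes differ was not tested. Without either IKKb(EE)IEC array, Slc3a1 no longer passed (adjusted p = 0.291 and 0.334, at changes of 0.78 and 0.75), nor did it with a shift by array medians (0.82, adjusted p = 0.065) or with no filter (adjusted p = 0.0628).

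The other brush border genes did not pass the threshold. Slc15a1, the proton-coupled carrier of di- and tripeptides, was at 3.23 and 3.01 in WT against 2.95 and 2.80 in IKKb(EE)IEC (−0.25 ± 0.18, adjusted p = 0.351). Slc6a19, the sodium-coupled carrier of neutral amino acids, was at 4.65 on both WT arrays and at 4.29 and 4.41 in IKKb(EE)IEC (−0.30 ± 0.17, adjusted p = 0.228). In both of these the arrays were ordered by genotype, with a difference of under 2 standard errors. Slc1a1, which takes up glutamate and aspartate, overlapped between the groups at 1.46 and 0.82 in WT against 0.89 and 1.30 in IKKb(EE)IEC (−0.04 ± 0.28, adjusted p = 0.924). Slc36a1, a proton-coupled carrier of small neutral amino acids, was at 0.89 and 0.01 in WT against 0.19 and 0.09 in IKKb(EE)IEC (−0.31 ± 0.31, adjusted p = 0.493); its WT arrays differed more than the genotypes. Slc6a20a, a carrier of proline and other imino acids, is listed under an older name and so falls outside the rule. It was at 3.14 and 2.47 in WT against 2.08 and 2.33 in IKKb(EE)IEC (−0.60 ± 0.27, adjusted p = 0.16).

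**Figure D1:**
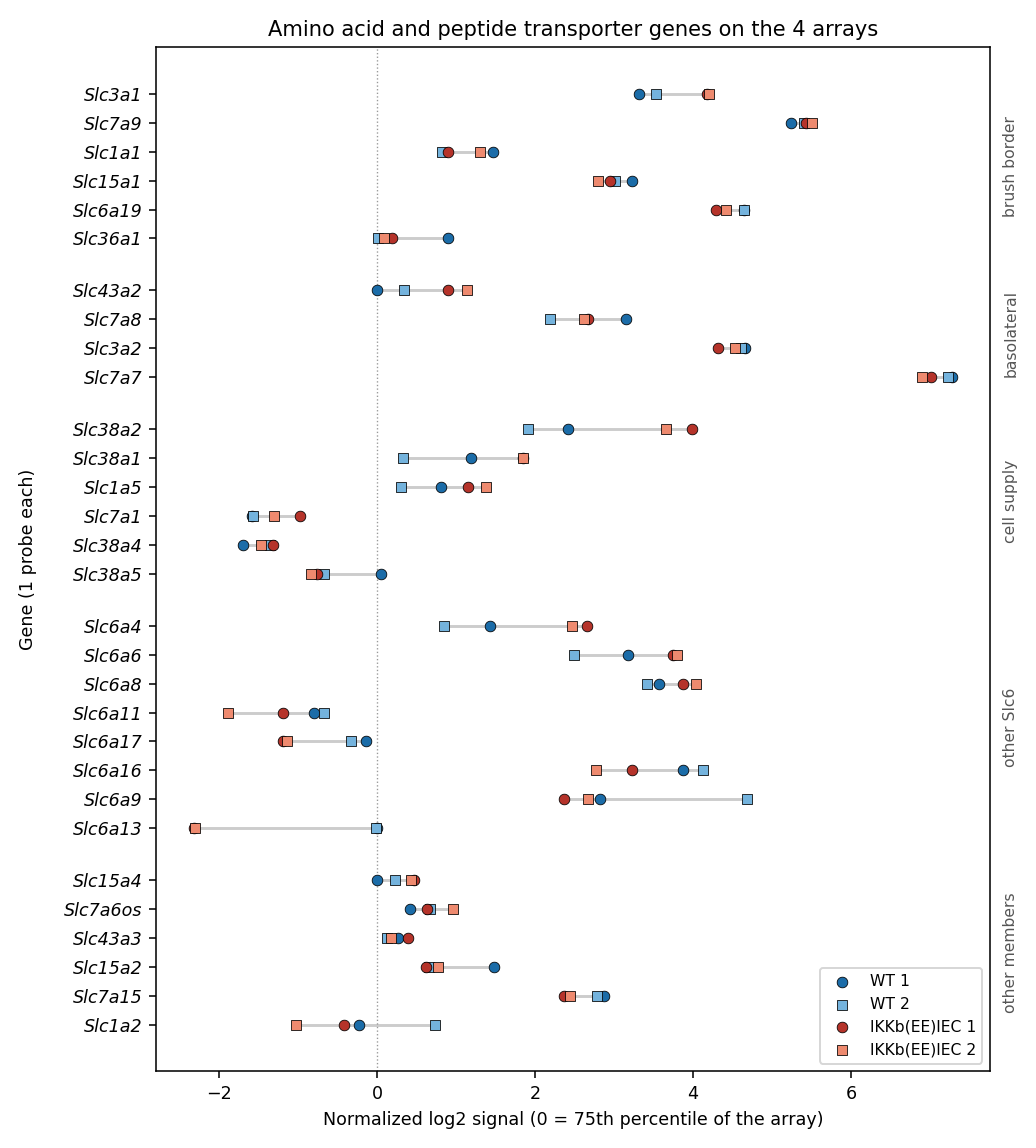
Normalized log2 signal (horizontal axis, 0 is the array's 75th percentile) of the 30 reported genes, 1 probe each, on the 2 WT arrays (blue) and the 2 IKKb(EE)IEC arrays (red), grouped by role; grey lines join the lowest and highest array. The red points lie to the right of the blue for Slc38a2, Slc6a4, Slc43a2 and Slc3a1 and to the left for Slc6a13, which reads −2.32 and −2.31 in IKKb(EE)IEC against −0.01 and −0.02 in WT; levels of different probes are not to be compared.

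On the basolateral side, 1 of 4 genes rose. Slc43a2, which lets essential neutral amino acids such as the branched-chain ones leave the cell by facilitated diffusion, was at −0.01 and 0.34 in WT against 0.89 and 1.14 in IKKb(EE)IEC (chr11:75390639-75390698, mm8). Its rise of 0.85 ± 0.21 (1.80-fold) was just inside the threshold (adjusted p = 0.0495), and just outside when every probe was tested (adjusted p = 0.0512). A second probe of Slc43a2 read near background on both WT arrays, at −3.52 and −2.73, and read −1.61 and −1.02 in IKKb(EE)IEC, at least 2.67-fold higher. It met the background filter through the IKKb(EE)IEC arrays alone and is given as a description, with no weight for the call of the brighter probe. That call was lost with quantile normalization (adjusted p = 0.0543), with the authors' value table (0.40, adjusted p = 0.0675) and with no filter (adjusted p = 0.0628). Without either IKKb(EE)IEC array, the brighter probe did not pass (adjusted p = 0.237 and 0.356). Slc3a2, the heavy subunit shared by the basolateral exchangers, was at 4.66 and 4.61 in WT against 4.31 and 4.53 in IKKb(EE)IEC (−0.22 ± 0.18, adjusted p = 0.396). Its light subunits were Slc7a7, which exports dibasic amino acids, at 7.28 and 7.23 against 7.01 and 6.90 (−0.30 ± 0.17, adjusted p = 0.231), and Slc7a8, which exchanges neutral amino acids. Slc7a8 read 3.15 and 2.19 in WT against 2.67 and 2.62 in IKKb(EE)IEC (−0.02 ± 0.33, adjusted p = 0.964), with both IKKb(EE)IEC arrays between the WT arrays.

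The largest rise among all members was that of Slc38a2, among the 6 carriers that supply the cell's own metabolism. Slc38a2 is a sodium-coupled carrier of small neutral amino acids such as glutamine and alanine, and its transcription is known to respond to amino acid shortage and to osmotic stress. It was at 2.42 and 1.91 in WT against 3.99 and 3.65 in IKKb(EE)IEC (chr15:96517739-96517798, mm8). The lowest IKKb(EE)IEC array thus stood above the highest WT array, and the difference was 1.65 ± 0.24 (3.15-fold; adjusted p = 0.0169). Slc38a2 was represented by 4 probes, and all 4 had higher values on both IKKb(EE)IEC arrays than on both WT arrays. The probe at chr15:96526116-96526175 read 0.10 and 0.08 against 1.16 and 1.26 (1.12, adjusted p = 0.0165 in the fit of every probe). The probe at chr15:96516094-96516153, well above background on only 1 WT array, read −0.46 and −1.11 against 0.91 and 0.65 (1.57, adjusted p = 0.023). The fourth, at chr15:96525025-96525084, was not well above background in WT, at −2.46 and −2.43 against −0.10 and 0.03, at least 5.30-fold higher; it met the background filter through the IKKb(EE)IEC arrays alone. The 4 probes read 1 gene in the same 4 samples, so they are repeated readings and not replicates. Without either IKKb(EE)IEC array, Slc38a2 was at 1.48 and 1.82 with adjusted p = 0.129 and 0.0721.

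The other carriers of this set did not pass the threshold. Slc38a1, which also carries glutamine, was at 1.19 and 0.32 in WT against at 1.85 on both IKKb(EE)IEC arrays (1.10 ± 0.31, adjusted p = 0.0647), and it passed in 6 of the 14 alternatives tried. Slc1a5, an exchanger of neutral amino acids including glutamine, was at 0.81 and 0.30 in WT against 1.15 and 1.37 in IKKb(EE)IEC (0.70 ± 0.23, adjusted p = 0.0902). The arrays of these genes were ordered by genotype, with the spread between the WT arrays taking up much of the error. Slc7a1, a carrier of arginine and lysine, was well above background on the IKKb(EE)IEC arrays alone, at −1.59 and −1.58 against −0.98 and −1.31 (0.44 ± 0.19, adjusted p = 0.15). The change of Slc7a1 was 0.03 with the authors' value table and −0.02 with normexp on the extraction's own background. Slc38a4 (0.13 ± 0.20), also well above background in IKKb(EE)IEC alone, and Slc38a5 (−0.48 ± 0.27), a glutamine carrier, completed the set. The arrays of Slc38a4 overlapped between genotypes. Over the 6 genes the median change was 0.57.

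**Figure D2:**
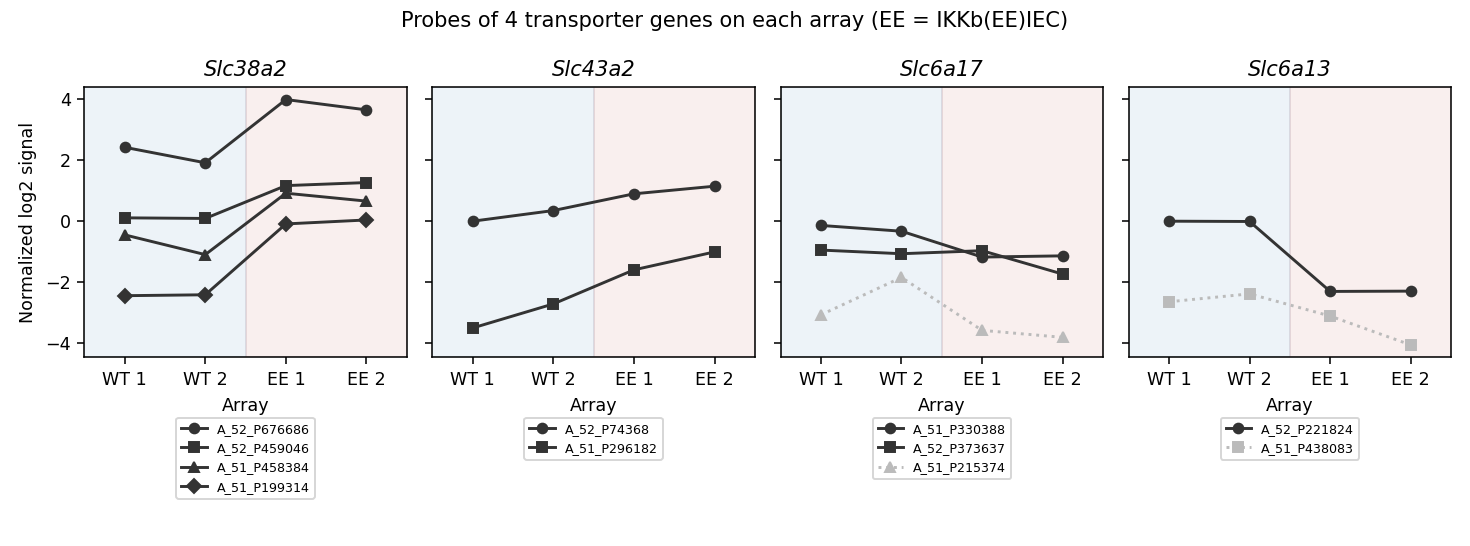
Normalized log2 signal (vertical axis) on the 4 arrays (horizontal axis; EE is IKKb(EE)IEC) for each probe of Slc38a2, Slc43a2, Slc6a17 and Slc6a13, with 1 line per probe; grey dotted lines are probes not well above background on at least 2 arrays. All 4 Slc38a2 probes and both Slc43a2 probes step up in IKKb(EE)IEC. Of the 2 reported Slc6a17 probes, 1 steps down and the other overlaps between genotypes. Both Slc6a13 probes read lower in IKKb(EE)IEC, but 1 of them was not well above background on any array.

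The Slc6 carriers outside the brush border moved in both directions, with 1 of 8 higher and 3 lower. Slc6a4, the serotonin transporter, which removes serotonin released by enteroendocrine cells, was at 1.43 and 0.85 in WT against 2.65 and 2.46 in IKKb(EE)IEC (chr11:76848253-76848312, mm8). Its rise of 1.41 ± 0.24 (2.66-fold; adjusted p = 0.0249) was larger than the gap between the WT arrays. Beside it, Tph1, the rate-limiting enzyme of serotonin synthesis outside the nervous system, was at 0.58 and −0.15 in WT against 0.00 and 0.20 in IKKb(EE)IEC (−0.11 ± 0.28, adjusted p = 0.78). The summed level of 10 measured enteroendocrine markers was 306 and 330 in WT against 315 and 350 in IKKb(EE)IEC, with overlapping ranges. Much of it was Sct, without which the sums were 114 and 108 against 108 and 130. Without Sct and Chgb they were 86.4 and 95.8 against 68.3 and 85.4. Of the 10 markers 1 was lower (Nts, −1.27 ± 0.19, adjusted p = 0.0178), none was higher and 9 did not pass. Among the 9, Chgb (1.24 ± 0.40), Chga (0.73 ± 0.20) and Cck (0.55 ± 0.21) read higher on both IKKb(EE)IEC arrays than on both WT arrays. Pyy (−0.53 ± 0.23), Gip (−0.61 ± 0.26), Gcg (−0.72 ± 0.23) and Sst (−0.76 ± 0.27) read lower on both. Without either IKKb(EE)IEC array, Slc6a4 did not pass (adjusted p = 0.167 and 0.128), nor with no filter on dim probes (adjusted p = 0.0546). Slc6a6, the taurine transporter, was at 3.17 and 2.49 in WT against 3.75 and 3.79 in IKKb(EE)IEC (0.94 ± 0.26, adjusted p = 0.0627). Slc6a8, the creatine transporter, differed by 0.46 ± 0.18 (adjusted p = 0.122).

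The largest fall on this scale was that of Slc6a13, a transporter of GABA that also carries taurine. It was at −0.01 and −0.02 in WT against −2.32 and −2.31 in IKKb(EE)IEC, where it was not well above background (chr6:121303178-121303237, mm8). On this scale the WT level was at least 4.91-fold higher (fitted change −2.30 ± 0.16, adjusted p = 0.00276). The probe met the background filter through the WT arrays alone, so its entry into the test was not independent of the comparison, and neither the p nor the call without any 1 array is support for it. The size depended on the processing: the change was −0.71 with the authors' value table, −0.97 with normexp on the extraction's own background and −0.55 with normexp on the local background. A second Slc6a13 probe that overlaps the first, at chr6:121303198-121303257, was not well above background on any array, at −2.66 and −2.40 in WT against −3.13 and −4.08 in IKKb(EE)IEC. The lower value therefore rests on 1 of 2 overlapping probes. Slc6a16, a Slc6 member with no established substrate, was at 3.87 and 4.12 in WT against 3.23 and 2.77 in IKKb(EE)IEC (−1.0 ± 0.22, adjusted p = 0.0436), read by 1 probe designed on a predicted transcript; the call was lost with normexp on the extraction's own background (−0.66, adjusted p = 0.0589) and with no filter (adjusted p = 0.0628). Slc6a17, a vesicular carrier of neutral amino acids in neurons, was at −0.15 and −0.34 against −1.19 and −1.15 (−0.93 ± 0.17, adjusted p = 0.0291). The call of Slc6a17 was lost with the authors' value table (−0.28, adjusted p = 0.101), with the mean over its probes (−0.64, adjusted p = 0.0826) and with no filter (adjusted p = 0.0628), and the change was −0.47 with normexp on the extraction's own background. Another reported Slc6a17 probe overlapped between genotypes, at −0.96 and −1.08 against −0.98 and −1.75 (−0.34, adjusted p = 0.41). Without either IKKb(EE)IEC array, Slc6a16 (adjusted p = 0.151 and 0.329) and Slc6a17 (0.239 and 0.246) did not pass.

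The remaining Slc6 members had lower values without passing the threshold. Slc6a9, a glycine transporter, was at 2.82 and 4.68 in WT against 2.37 and 2.67 in IKKb(EE)IEC (−1.23 ± 0.59, adjusted p = 0.182). The gap between its WT arrays exceeded that between genotypes, and the change was −2.16 without WT replicate 1 and −0.31 without WT replicate 2. Slc6a11, another GABA transporter, was at −0.80 and −0.67 against −1.20 and −1.89 (−0.81 ± 0.26, adjusted p = 0.0889).

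Of the 6 members outside these roles none passed the threshold. Slc15a4, a lysosomal carrier of histidine and peptides, was at 0.00 and 0.22 in WT against 0.46 and 0.42 in IKKb(EE)IEC (0.33 ± 0.17, adjusted p = 0.219). Slc15a2, a peptide carrier best known from kidney, differed by −0.37 ± 0.30 and Slc43a3 by 0.09 ± 0.18, with overlapping arrays in both. Slc7a15 differed by −0.42 ± 0.16 (adjusted p = 0.127) on its brighter probe, at 2.87 and 2.78 against 2.37 and 2.44. Its other probe, not well above background in WT, went the other way at −2.65 and −1.94 against −1.41 and −1.11 (adjusted p = 0.0635). Slc1a2, a glutamate transporter best known from astrocytes, was at −0.23 and 0.73 against −0.42 and −1.03 (−0.97 ± 0.38, adjusted p = 0.123). Its probe lies on the strand opposite to the gene, the only such case among 33 reported probes with a known gene strand, so the value is that of the probe and not surely that of the Slc1a2 transcript. Slc7a6os, at 0.25 ± 0.20, is a neighbour of Slc7a6 that meets the rule by name and is not a transporter.

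**Figure D3:**
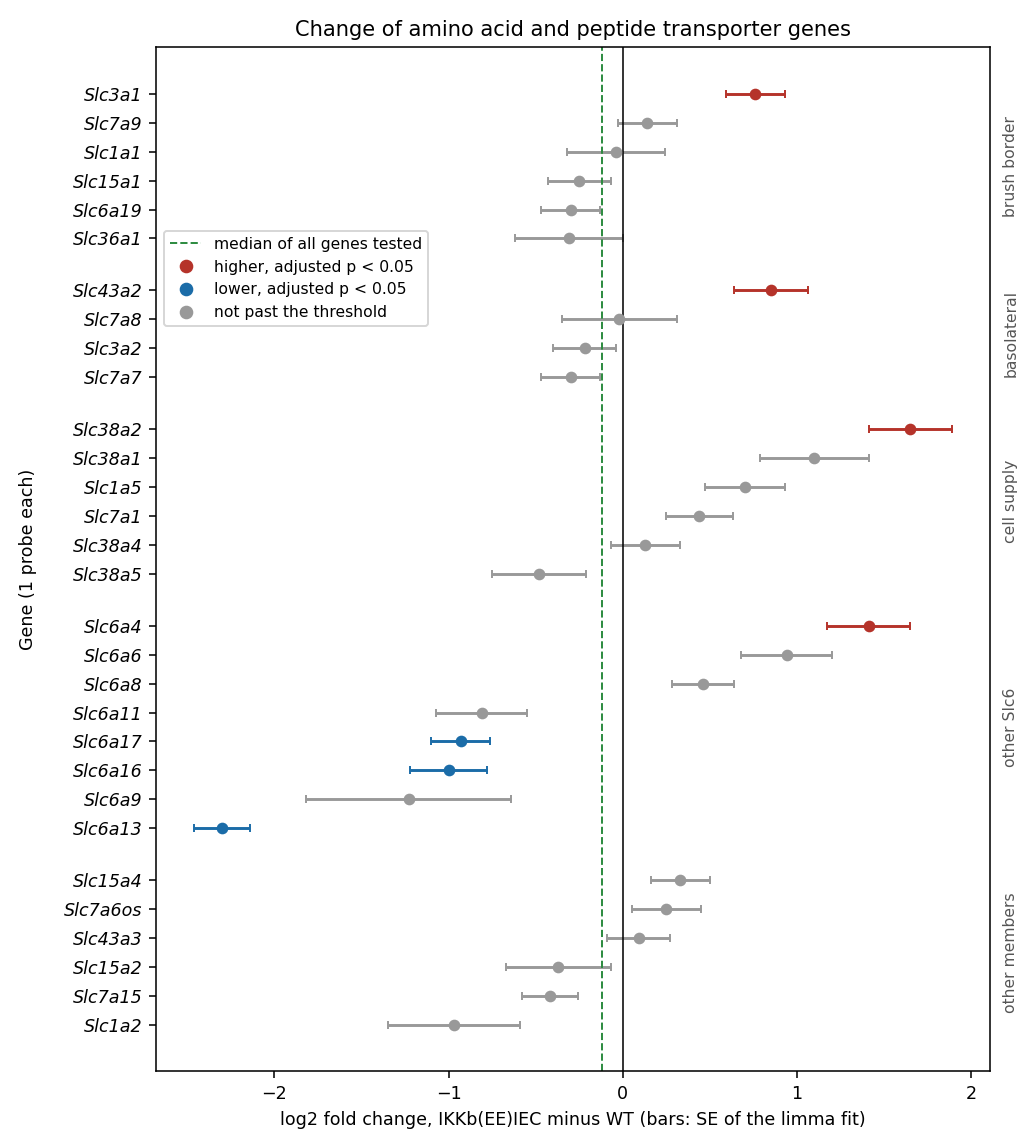
Log2 fold change (horizontal axis, IKKb(EE)IEC minus WT; bars are the SE of the limma fit, 2 arrays per genotype) of the 30 reported genes by role; red marks the 4 genes higher and blue the 3 lower at an adjusted p below 0.05, and the green dashed line is the median of all genes tested (−0.12). The changes run from −2.30 (Slc6a13) to 1.65 (Slc38a2), and the 5 brush border genes in grey lie between −0.31 and 0.14.

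These counts are read against all genes tested. Of the 30 members, 13.3% were higher and 10% lower, beside the 7.97% and 7.17% of all genes. The 10% includes Slc6a13, whose entry into the test was not independent of the comparison. With every probe tested, 7 of the 39 reported probes were higher and 3 lower, beside 8.16% and 5.72% of 16405 probes. The 7 include every Slc38a2 probe, repeated readings of 1 gene, so the probe count is not a count of genes. The dimmest Slc38a2 probe and the dimmer Slc43a2 probe, among the 7, met the background filter through the IKKb(EE)IEC arrays alone. The Slc6a13 probe, among the 3, met it through the WT arrays alone. Both IKKb(EE)IEC arrays were above both WT arrays for 11 of the 30 members and below for 12, beside 28.3% and 40.9% of all genes. The median change was −0.03 for the members and −0.12 for all genes, and the median absolute change 0.45 and 0.41. All 7 calls were lost with a normexp correction on the local background, which called 0 of 12446 genes (limma; 171 had an unadjusted p below 0.05) and compressed 1 array of each genotype, and 8 members were higher and 2 lower when the same correction used the background that the extraction had subtracted.

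The other 30 genes were not reported because none had a probe well above background on 2 arrays. A total of 61 probes were not well above background on any array and 2 on 1 array, those of Slc6a3 (a WT array) and Slc6a12 (an IKKb(EE)IEC array). Among the 30 were several carriers known from epithelia: Slc7a5 (−3.23 and −1.89 in WT, −3.81 and −2.63 in IKKb(EE)IEC), a light subunit of Slc3a2 that imports large neutral amino acids, and Slc15a3 (−2.70 and −2.65 against −2.27 and −2.55), a lysosomal peptide carrier. The broad carrier Slc6a14, read by 2 probes, lay between −3.97 and −2.63, and the cystine/glutamate exchanger Slc7a11, read by 4, between −4.18 and −3.15. Slc6a20b, a relative of Slc6a20a, was at −3.19 and −2.57 against −2.63 and −3.94. The arrays do not resolve a difference for these genes at such signals. By family, reported genes were 9 of 19 in Slc6, 6 of 16 in Slc7, 4 of 5 in Slc38, 3 of 7 in Slc1, 3 of 4 in Slc15, 2 of 2 in Slc3, 2 of 3 in Slc43 and 1 of 4 in Slc36.

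The settings in which the transporters work were read from 4 companion lists. Of 22 measured brush border peptidases and transport partners, 1 was higher and 2 lower (median −0.17). Anpep, the alanyl aminopeptidase that frees neutral amino acids from peptides, was at 9.28 and 9.19 in WT against 10.36 and 10.32 in IKKb(EE)IEC (1.10 ± 0.16, adjusted p = 0.017). Mep1a, a subunit of the protease meprin (−0.92 ± 0.19, adjusted p = 0.0383), and Xpnpep2, an aminopeptidase that cleaves before proline (−1.18 ± 0.20, adjusted p = 0.0241), were lower. Among these, then, Anpep rose while the peptidases Xpnpep2 and Mep1a fell.

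Of 28 measured genes of the amino acid response, the programme run by the factor Atf4 in amino acid shortage, 2 were higher and 2 lower (median 0.16). Atf5, an Atf4-related factor, rose by 1.49 ± 0.25 (adjusted p = 0.0225) and Aars, alanyl-tRNA synthetase, by 1.17 ± 0.21 (adjusted p = 0.0285). Nupr1, a stress-responsive chromatin protein (−1.51 ± 0.35, adjusted p = 0.0463), and Gpt2, mitochondrial alanine aminotransferase (at least 2.01-fold), were lower. Gpt2 met the background filter through the WT arrays alone. Its entry into the test was thus not independent of the comparison, so its p is not given and its call is no support. The other 24 genes of the list did not pass.

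Amino acid metabolism, with 28 measured genes, had 1 higher and 6 lower (median −0.45). Glul, glutamine synthetase, was at 1.28 and 1.56 in WT against 2.38 and 2.44 in IKKb(EE)IEC (0.99 ± 0.18, adjusted p = 0.03). The largest falls were Gclm, a subunit of the first enzyme of glutathione synthesis (−1.33 ± 0.19, adjusted p = 0.0161), Ido1, which degrades tryptophan (−1.08 ± 0.19, adjusted p = 0.0265), and Gpt, alanine aminotransferase (−1.07 ± 0.20, adjusted p = 0.029). The others lower were Ass1, Sat1 and Otc. Of 18 measured genes of amino acid sensing upstream of mTORC1, 1 was higher, Rragd, a Rag GTPase (0.69 ± 0.16, adjusted p = 0.0477), and none lower (median −0.06). None of the 15 calls in the 4 lists held without either IKKb(EE)IEC array.

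**Figure D4:**
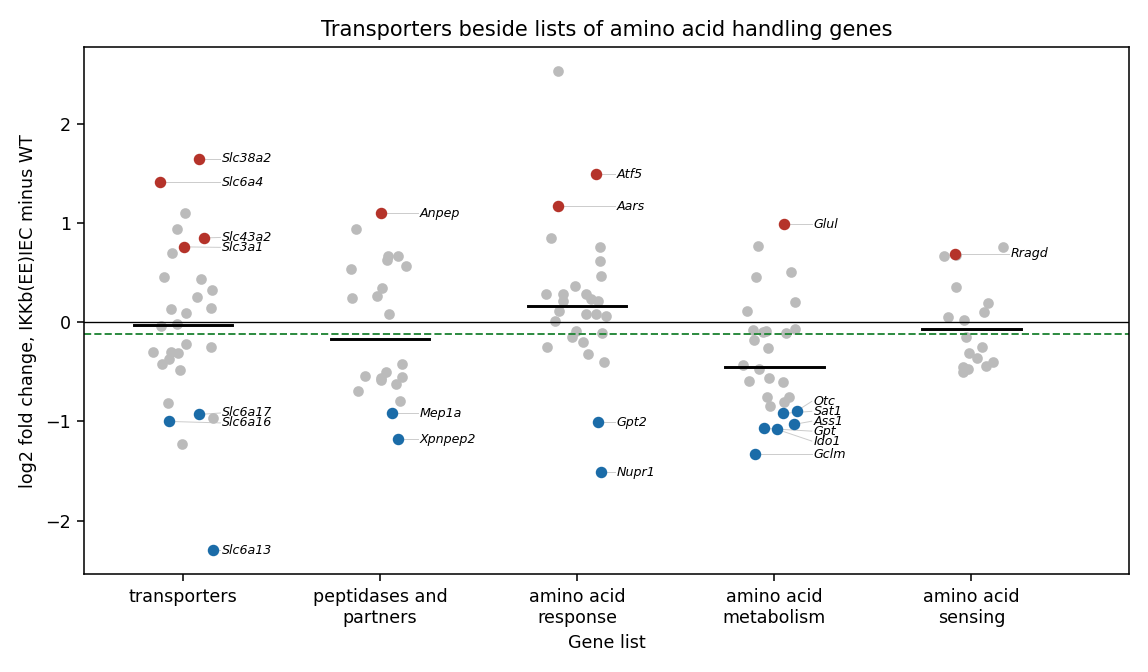
Log2 fold change (vertical axis, IKKb(EE)IEC minus WT) of the 30 transporters and of the measured genes of 4 companion lists, 1 point per gene; red and blue mark genes higher and lower at an adjusted p below 0.05, black bars are list medians and the green dashed line is the median of all genes (−0.12). The medians run from −0.45 (metabolism) to 0.16 (amino acid response), and most points in every list are grey.

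Some markers of other cells differed between genotypes in these samples. The summed level of 10 measured macrophage and dendritic cell markers was 8.84 and 10.4 in WT against 31.4 and 24.8 in IKKb(EE)IEC. Of the 10, 6 were higher and none lower. Cd163, Itgam and Mrc1 were not well above background on 2 arrays. C1qc, Fcgr1, Adgre1 and C1qa, all among the 6, met the background filter through the IKKb(EE)IEC arrays alone, so their calls are no support. Cd68 met the filter in the same way. The summed level includes all of these genes, so its higher value in IKKb(EE)IEC is no support either. C1qb, the brightest of the list, was at 2.36 and 2.27 against 2.22 and 2.12 and did not pass. Cd14, Cd68 and Csf1r did not pass either. The summed level of 9 Paneth cell markers was 21700 and 24600 against 3230 and 4440, with 7 of 9 lower. Of the 10 pancreatic acinar markers, 3 were measured and 1 was lower, the colipase gene Clps (−4.01 ± 0.43, adjusted p = 0.00643). Their sum of 455 and 199 in WT against 27.4 and 30.7 in IKKb(EE)IEC was nearly all Clps, and the other 2 summed to 15.9 and 15.5 against 12.1 and 10.6. Of 7 measured markers of the proximal small intestine, 1 was higher (the transcription factor gene Onecut2, 3.05 ± 0.48, adjusted p = 0.0204), 2 lower (Fabp1 and Lct) and 4 did not pass (median −0.41). The 7 summed to 4810 and 2920 against 1580 and 1460, and without Fabp1 to 446 and 338 against 193 and 211. Of 7 distal markers, 1 was higher (Guca2a) and 1 lower (Slc51a), with sums of 624 and 806 against 954 and 1120, and of 386 and 438 against 258 and 274 without Guca2a. None of 11 measured T and NK cell markers passed (188 and 204 against 151 and 135), nor did any of the 9 of crypt and stem cells (84.9 and 119 against 78.8 and 81.6). Without Olfm4, the crypt and stem cell sums were 20.2 and 18.9 against 21.3 and 21.3. Of 8 goblet cell markers 1 was lower (Spink4) and 7 did not pass, with sums of 6960 and 8570 against 4210 and 4510. Of 9 liver markers 1 was measured, Mup1, at 0.96 and 4.32 against −2.09 and −2.11. It met the background filter through the WT arrays alone. The part of these cells in the transporter results was not tested.

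**Figure D5:**
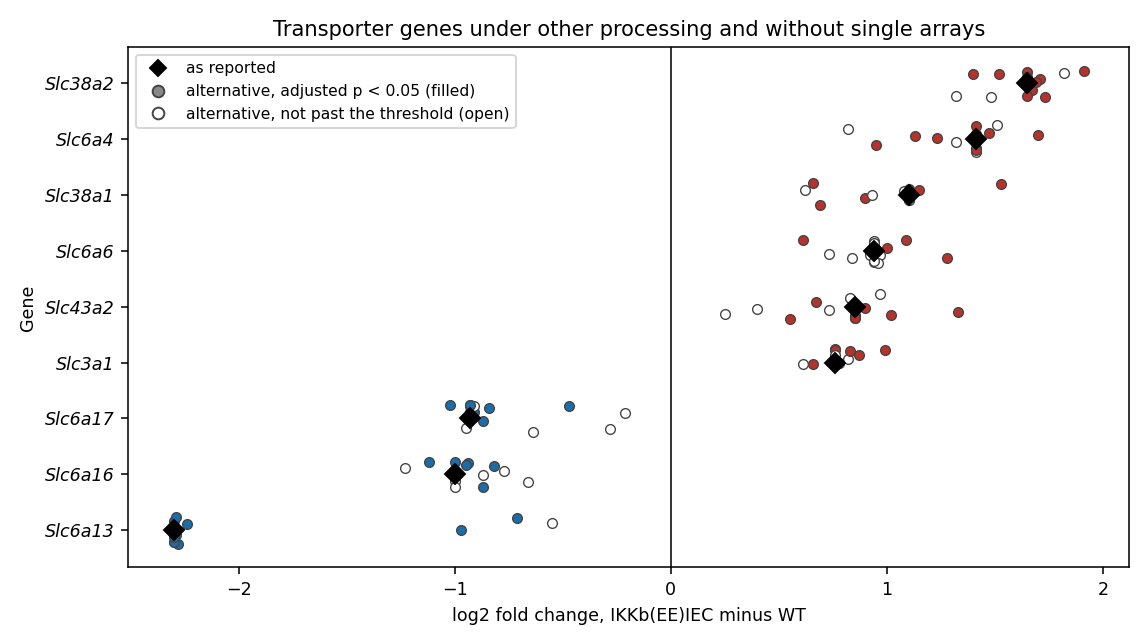
Log2 fold change (horizontal axis, IKKb(EE)IEC minus WT) of the 7 called transporters and of Slc38a1 and Slc6a6, as reported (black diamonds) and under 14 alternatives of processing or without 1 array (circles; filled where the adjusted p was below 0.05). Every value lies on the same side of 0 as the reported one, while open circles occur for every gene shown.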

How the data were processed

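Spot intensities were deposited by the authors as Agilent Feature Extraction 9.5.3.1 output of 1-colour arrays of design 014868, per the file headers: the processed signal is background-subtracted and detrended, with no normalization between arrays. Cy3 cRNA was made from 250 ng RNA, per the labels' protocols. The deposited flag columns and coordinates (mm8) come from the same files, per the file headers. The authors' deposited value table of linear intensities (column medians 111.5 to 112.0) served as an alternative; its normalization, and the exon a probe lies in, are not given in the sources used here.

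From log2 of the processed signal the array's 75th percentile (non-control spots) was subtracted. Control and non-uniform spots were left out, saturated spots kept (no member was saturated), and spots of a probe averaged. Probes well above background on at least 2 arrays entered, and the probe with the highest mean stood for a gene. Names follow RefSeq (GRCm38.p6) for 24375 probes matched by accession and 4647 sharing a listed name; 12152 kept the listed name. Genotypes were compared by limma 3.58.1 in R 4.3.3 (lmFit, eBayes, prior of 3.51 degrees of freedom; two-sided; Benjamini-Hochberg; adjusted p below 0.05), tested on simulated data. With 2 against 2 arrays there are 3 splits, each 33.3%, so no permutation can reach 0.05. "At least" folds set the brighter group's mean against the higher of the dim probe's own signal and the lowest signal well above background. Where the dim probe's own signal is the higher, this is the fitted fold itself. Such a fold holds on this scale alone and is no bound under other processing. Arrays give no counts, and their number limits precision.

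Values per array were given for every called member and for carriers known from absorption, whatever their result, and up to 3 called genes each way per companion list. Members and lists were chosen with earlier results of these data known, and no list was tested. A few genes of the companion lists are not reported here and were left out of their counts. The 14 alternatives changed the scaling, background, filter, probe rule, pairing or arrays; normexp with the extraction's own background was added after seeing the data.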

Additional observations from a re-analysis of the deposited data

How the results depend on the processing

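The 7 called transporters kept their direction in the 14 alternatives, except that Slc6a13 was not tested where a probe had to be well above background on all 4 arrays, but their calls were not all kept. Main counts were 4 higher and 3 lower. Normexp on the local background called 0 members and 0 of 12446 genes (limma; 171 genes and 0 members had an unadjusted p below 0.05), and 0 in the companion lists, where the main count was 15. Its values had an interquartile range of 1.04 on WT 1 and 0.73 on IKKb(EE)IEC 2 but 1.87 on WT 2 and 2.06 on IKKb(EE)IEC 1 (2.96 to 3.04 in the main values), so arrays of a genotype were not on 1 scale. With the extraction's own background it called 8 higher, 2 lower and 23 companion genes. The shift by array medians called 5 lower, and no filter on dim probes called 1 higher, 1 lower and 2 companion genes, with 60 members tested. Leaving out 1 array gave 0 to 8 higher, 1 to 7 lower and 0 to 44 companion genes: 8 higher, 6 lower and 44 companion genes without WT replicate 1, 6, 7 and 38 without WT replicate 2, and 0, 1 and 0 without either IKKb(EE)IEC replicate. A group left with 1 array is assumed to vary like the other group. The cause of the other shifts was not tested. With the replicate number as a block, 3 were higher and 2 lower: Slc3a1 (adjusted p = 0.0567) and Slc6a16 (0.058) no longer passed. Same-numbered arrays deviated together at r = 0.108 across genes, and with 2 pairs the numbers are not shown to pair the samples. The median change of all genes was −0.12, against −0.02 with the authors' table, −0.01 with the extraction's own background and −0.45 with no filter. Signs of members that did not pass (Slc15a1, Slc7a7 and Slc3a2 among them) turned in some alternatives. Dim probes are limited by background.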

Other observations

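Slc38a9, a lysosomal amino acid sensor that acts upstream of mTORC1, is listed under an older name and so falls outside the family names searched. Of its 3 probes 1 passed the background filter, through the IKKb(EE)IEC arrays alone, at −1.46 and −1.57 in WT against −0.35 and −0.20 in IKKb(EE)IEC, at least 2.37-fold higher. Its entry into the test was not independent of the comparison, so its p is not given. It was chosen after its values were seen. Also under older names, Slc38a10 (0.53 ± 0.18, adjusted p = 0.0988) and Slc38a7 (−0.08 ± 0.17, adjusted p = 0.757), did not pass. Chac1, a glutathione-degrading enzyme of the amino acid response list, had the largest difference of that list without passing, at −3.04 and −0.33 in WT against 1.12 and 0.57 in IKKb(EE)IEC (2.53 ± 0.85, adjusted p = 0.093). Asns, asparagine synthetase, was at 3.48 and 4.29 against 4.43 and 4.28 (0.47 ± 0.30, adjusted p = 0.281), Atf4 at 2.17 and 2.35 against 2.18 and 2.16, and Trib3, a pseudokinase of the same response, at 1.15 and 0.84 against 1.14 and 0.87.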
